A study of Mus musculus with 12 samples.

Results

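Integrins and laminins were followed through the m6A peak lists of mouse colon. N6-methyladenosine (m6A) is the commonest internal modification of mRNA, and it is mapped by pulling down RNA fragments with an antibody and sequencing them beside the input RNA. The genes were chosen by symbol, as the integrin alpha and beta genes (Itga, Itgb) and the laminin alpha, beta and gamma genes (Lama, Lamb, Lamc) with a peak in any of the 6 lists, leaving out symbols that contain bp. This gave 27 of the 11548 genes with a listed peak, 19 integrins and 8 laminins. Their 239 peaks fell into 84 of the 26654 regions obtained by merging peaks that shared at least 1 base.

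The lists came from colon of wild-type male C57BL/6J mice, 6 to 8 weeks old and 20 to 22 g. The normal group (3 mice) was fed normally, and the other 3 mice received 5% w/v 2,4,6-trinitrobenzenesulfonic acid (TNBS) into the colon, a hapten model of inflammatory bowel disease. Each mouse gave an immunoprecipitated and an input library, and each list sets one against the other. The time after TNBS was not given in the sources used here, and the labels' extraction text speaks of retinas while every tissue label says colon.

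Laminins are trimers of an alpha, a beta and a gamma chain and form the sheet-like network of basement membranes under epithelium, around smooth muscle and around vessels. Integrins are pairs of an alpha and a beta chain that bind laminins, collagens, fibronectin or other cells and tie them to the cytoskeleton. In the gut they hold the epithelium to its basement membrane, connect muscle cells to matrix and guide leukocytes into the wall. m6A is usually found near stop codons and in long exons.

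Values are given in the order normal 1, 2 and 3 and then TNBS 1, 2 and 3. The normal lists held 13992 to 16488 peaks and the TNBS lists 18752, 10971 and 19285. TNBS 2 was the shortest list. All mice were labelled male, yet on the male part of chromosome Y the lists of TNBS 1 and TNBS 3 held 0 peaks, against 12 in each normal list and 19 in TNBS 2. Group differences that rest on TNBS 1 and TNBS 3 are therefore also given without them, as TNBS 2 alone against the normal mean, with no test. The colon epithelium genes Cdx1, Cdx2, Vil1 and Krt20 had a peak in every list, and of 12 epithelial markers 4 to 6 had one per list. Cdh1, Krt18, Krt19, Muc2, Slc26a3 and Car1 had none. Among retina markers (7 genes), Abca4 was listed once, in TNBS 2. Whether a peak is called reflects how much of a transcript was present and sequenced besides its m6A, and in whole colon fewer cells of a type and less RNA per cell cannot be told apart.

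Some members' peaks began exactly at the first base of an annotated transcript, and the first 30 bases of those transcripts are shown to place them. Of the 27 members 18 were in the RefSeq table of start sites (GRCm38.p6), and 7 of them had a region whose outer border was an annotated start. Such a start need not be the border of the gene. The Itgav gene begins at 83722303 and its matched start lies at 83724397, and those of Itga3, Lama5 and Lamb1 also lie inside the gene span. The capital marks that base, and each sequence runs 5′ to 3′ along the transcript.
Itga1 start: Gggatttggttcgtgaagcaagatcgccct
Itga3 start: Cctccctcctgccctcctggtgatcgaggg
Itgav start: Ttcggcggggcggcccggcctggccggctc
Itgb1 start: Gtttccggagggagagaaaagccgggcagc
Itgb5 start: Tggcggcccgcaggagaggggggaggagaa
Lama5 start: Acttgccgggctcctgcggtgcgcgctgtc
Lamb1 start: Cttctttgggccggtgggctgccaggagcg

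The 7 starts lie on chromosome 13 at 115101964 (Itga1, minus strand), chromosome 11 at 95076714 (Itga3, minus strand), chromosome 2 at 83724397 (Itgav, plus strand), chromosome 8 at 128685654 (Itgb1, plus strand), chromosome 16 at 33829665 (Itgb5, plus strand), chromosome 2 at 180225859 (Lama5, minus strand) and chromosome 12 at 31265293 (Lamb1, plus strand). Every list that held one of these regions placed its border on that base, except 1 of the 5 lists for Itgav. The letters GGAC, a frequent core of m6A sites, were searched on the transcript strand in the first 50 transcribed bases, since m6A lies on the RNA. They occurred in 0 of the 7, against 18.9% of the 32851 start sites in the table. With so few windows, a count of 0 is not far from this share. The search describes these windows alone, because the longer stretches under the peaks were not read here.

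Members had a peak about as often in colitis as in normal colon, while the number of peaks per member was spread much more widely among the TNBS mice. A peak was listed for 22, 21 and 19 of the 27 members in normal 1, 2 and 3 and for 25, 12 and 24 in TNBS 1, 2 and 3. The means were 20.7 ± 1.53 and 20.3 ± 7.23 (SD, n = 3 each), so the groups overlapped, and the difference of -0.333 was below the spread between mice. Over all genes with a peak, 70.6% to 78.2% were listed per normal library and 82.6%, 59.6% and 81.7% per TNBS library, so TNBS 2 was low for all genes and lower still for the members, at 44.4%. Without TNBS 1 and TNBS 3 the difference was -8.67.

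The summed number of member peaks was 35, 31 and 28 in the normal lists and 59, 17 and 69 in the TNBS lists. Laminins accounted for 12, 10 and 9 of these in normal and 24, 4 and 31 in TNBS colon, and integrins for 23, 21 and 19 and 35, 13 and 38. For both families TNBS 1 and TNBS 3 lay above and TNBS 2 below every normal list. As a share of all peaks in a list, members made up 0.212%, 0.19% and 0.2% in normal and 0.315%, 0.155% and 0.358% in TNBS colon. TNBS 1 and TNBS 3 were again highest and TNBS 2 lowest. The mean share differed by 0.075 percentage points (0.201% ± 0.0112 against 0.276% ± 0.107, n = 3 each), and without TNBS 1 and TNBS 3 by -0.0458.

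**Figure D1:**
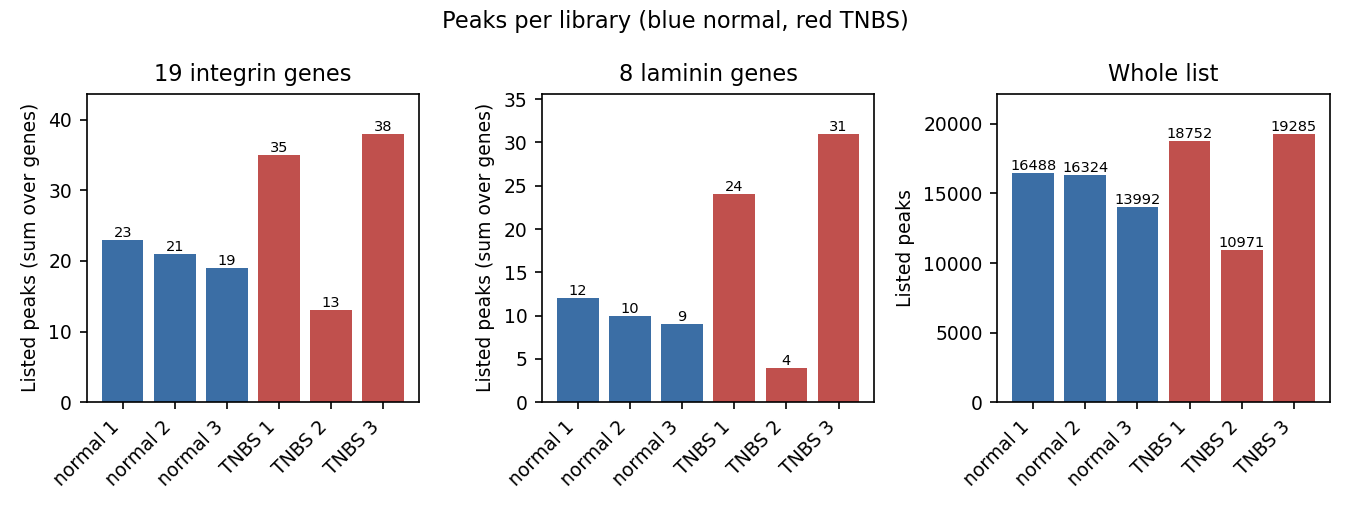
Bars give the number of listed peaks per library, summed over the 19 integrin genes, over the 8 laminin genes and over the whole list, with 1 mouse per bar. TNBS 1 and TNBS 3 have the most laminin peaks (24 and 31) and TNBS 2 the fewest (4).

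By presence of a peak, no member separated the groups. Of 27 members 0 had a peak in 3 of 3 TNBS and 0 of 3 normal libraries, where 0.996% of all genes did, and 0 the reverse, where 1.04% did. With so few members, a count of 0 is near these shares. A peak in all 6 libraries was listed for 9 members (33.3%), against 48.1% of all genes. A further 8 members (29.6%) had one in all libraries but TNBS 2, against 11.5% of all genes.

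**Figure D2:**
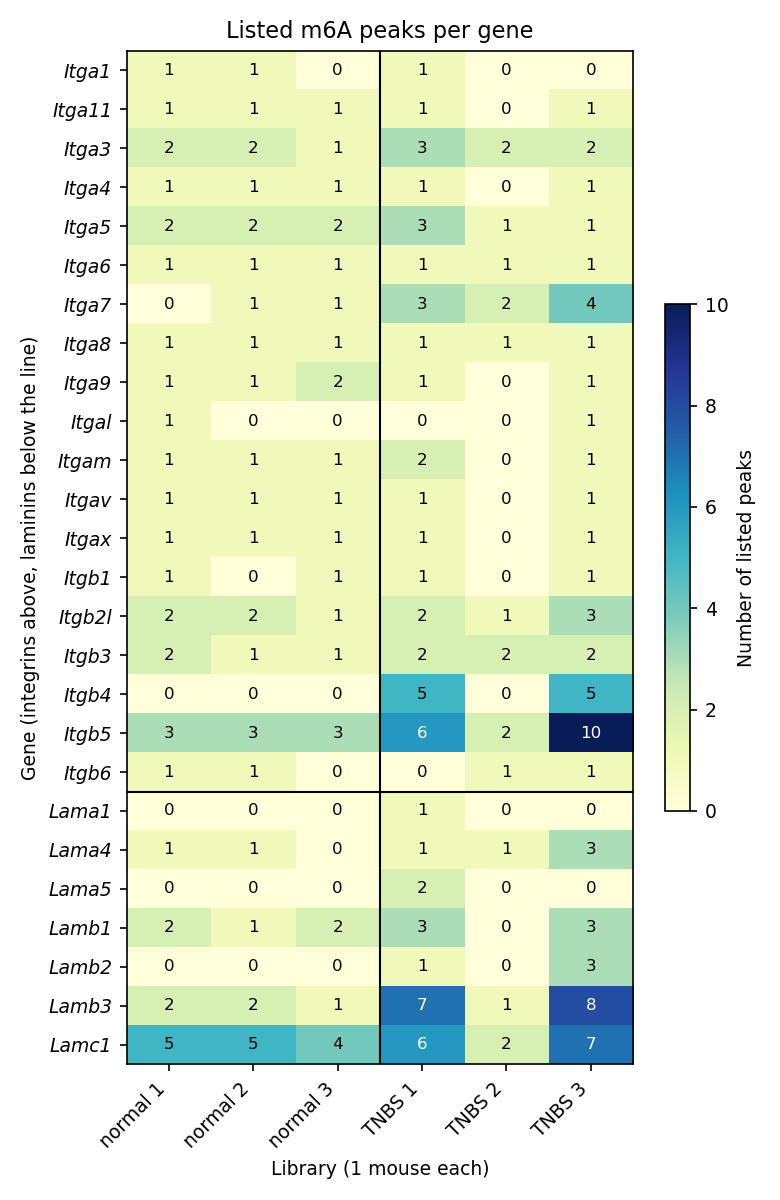
Each cell gives the number of listed m6A peaks of 1 gene (row, 26 of the 27 members) in 1 library (column), with normal libraries left and TNBS libraries right of the line. Itga7 is the 1 gene with more peaks in every TNBS library than in any normal library, and Itgb4, Itgb5 and Lamb3 stand out in TNBS 1 and TNBS 3 alone.

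Itga7, the alpha chain of the laminin receptor of muscle cells, was the 1 member whose peak number was higher in each TNBS list than in each normal list. It had 0, 1 and 1 peaks in normal and 3, 2 and 4 in TNBS colon. The means were 0.667 ± 0.577 and 3 ± 1, with a two-sided p of 0.1 by exact permutation (n = 3 each), the smallest that 3 against 3 can give and one that 4.12% of all genes reached. Adjusted over all 11548 genes by Benjamini-Hochberg the exact p was 1, and no gene could pass 0.05. Of all genes 1.97% were higher in every TNBS list by this measure, so 1 of 27 members is near the background. In the other direction there were 0 members, against 2.15% of genes. When peaks had to reach a p of 1e-10, Itga7 no longer separated the groups, with a difference in means of 1.33 in place of 2.33.

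The Itga7 gene spans 128933421 to 128958286 on chromosome 10. Its region at 128933813 to 128934194, near the lower border of the gene, was called in all 3 TNBS and 0 normal lists, with a fold enrichment of 11.8, 6.93 and 13.4 (the authors' value for each peak, immunoprecipitated over input). This was the single member region of 84 with that pattern, against 0.949% of all regions. For the reverse pattern there were 0 member regions, against 1.54%. The peak stood at percentile 51.8, 16.9 and 36.0 of its list by the caller's p (100 is strongest), so it was never among the strongest, and in TNBS 2 its p was above 1e-10. Percentiles near the top are ties, since 8.25% to 18.2% of each list shared the score of 3100, and those peaks have no order among themselves. A second region, at 128939040 to 128939167, was listed by normal 2, normal 3 and all TNBS lists, with a fold enrichment of 6.22 and 7.04 in normal and 11.3, 7.49 and 15.2 in TNBS colon. Of the remaining 2 regions, 1 was listed in TNBS 1 and TNBS 3 and 1 in TNBS 3. Among 8 smooth muscle markers, which could share cells with Itga7, 4, 4 and 6 had a peak in normal and 6, 5 and 6 in TNBS colon, with 18, 20 and 23 against 25, 15 and 29 peaks. Tagln had none, and the part of these cells in the result was not tested.

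Among the laminins, all 8 genes had a higher mean peak number in the TNBS lists, against 40.2% of all genes, and the median difference was 0.833 peaks against 0 over all genes. Lama1, Lama5 and Lamb2 had 0 peaks in every normal list. They met the rule of a peak in any list through TNBS lists, which fixed their direction in advance. The percentage over all genes also includes genes that entered in this way. None of the 8 laminins separated the groups. TNBS 2 was at or below the highest normal list in each, and the higher means rested on TNBS 1, TNBS 3 or both, except in Lama4. Without TNBS 1 and TNBS 3, 1 laminin (Lama4) was higher, 4 were lower and 3 were equal, with a median difference of -0.333, the same as over all genes.

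Lamb3, the beta chain of the laminin that anchors epithelium at hemidesmosomes, had 2, 2 and 1 peaks in normal and 7, 1 and 8 in TNBS colon. TNBS 1 and TNBS 3 were high and TNBS 2 equalled the lowest normal list. The means were 1.67 ± 0.577 and 5.33 ± 3.79 (n = 3 each, exact permutation p = 0.4), and without TNBS 1 and TNBS 3 the difference was -0.667. Its region at the end of the gene, chromosome 1, 193343374 to 193343878, was listed by all 6 libraries, with a fold enrichment of 21.0, 15.7 and 14.3 in normal and 27.3, 14.5 and 58.1 in TNBS colon. The additional peaks lay upstream of it. Regions at 193301957 to 193302141, 193304436 to 193304590, 193332123 to 193332501, 193334416 to 193334633 and 193340748 to 193340901 were called in TNBS 1 and TNBS 3 alone.

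Lamc1, the gamma chain shared by most laminins, had the most peaks of any member in each normal list, with 5, 5 and 4, and had 6, 2 and 7 in the TNBS lists. The difference of 0.333 was below the spread between mice (SD 0.577 and 2.65, exact permutation p = 1, n = 3 each), and without TNBS 1 and TNBS 3 it was -2.67. Both end regions of the gene were listed by all 6 libraries, chromosome 1, 153218922 to 153221729 and 153332128 to 153332786. The first was tied at or above the score of 3100 in all lists but TNBS 2, where it stood at percentile 1.91, among the weakest peaks of that list. Besides these, 3 regions that 2 or 3 normal lists shared were missing from TNBS 2.

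Lamb1, the beta chain that pairs most often with Lamc1, had 2, 1 and 2 peaks in normal and 3, 0 and 3 in TNBS colon. The peak at its start, shown above, was called in TNBS 1 and TNBS 3 alone, with a fold enrichment of 4.42 and 5.48. Its region at chromosome 12, 31319919 to 31320103, was called in all libraries but TNBS 2, so Lamb1 had both a shared and an added site.

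Lamb2, a beta chain of muscle and vessel basement membranes, had 0 peaks in each normal list and 1, 0 and 3 in the TNBS lists. Its strongest region, chromosome 9, 108487476 to 108487848, was listed in TNBS 1 and TNBS 3 with a fold enrichment of 11.4 and 16.2 and stood at percentile 76.2 and 73.9. The gene was thus absent from 4 lists and well ranked in the other 2 (difference in peak number 1.33, exact permutation p = 0.4, n = 3 each). The difference was 0.5 without TNBS 3, 0.667 with the 10971 strongest peaks of every library and 0 without TNBS 1 and TNBS 3.

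Lama4, the alpha chain of vessel laminins, had 1, 1 and 0 peaks in normal and 1, 1 and 3 in TNBS colon. The groups overlapped (difference 1, exact permutation p = 0.6, n = 3 each). Its region at one border of the gene, chromosome 10, 38965515 to 38966149, was missing from normal 3 alone. Its fold enrichment was 6.48 and 7.78 in normal 1 and normal 2 and 33.9, 12.4 and 33.8 in the TNBS lists, and its percentile 21.7 and 40.2 and 77.2, 46.9 and 74.7. Folds and percentiles rank peaks within a list, and since the lists differ in length they show no change between mice. Of 7 endothelial markers 6, 6 and 6 had a peak in normal and 7, 7 and 6 in TNBS colon, with 9, 10 and 9 against 14, 16 and 10 peaks. Of these markers 1, Cdh5, had more peaks in each TNBS list (3, 4 and 3) than in each normal list (2, 2 and 2), and 0 the reverse. Over all genes 1.97% and 2.15% did so. The part of vessels in these values was not tested.

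Lama5, the alpha chain of most adult epithelial basement membranes, and Lama1, an alpha chain best known from the embryo, were listed in TNBS 1 alone. Lama5 had 2 peaks there, 1 of them at the start shown above, at percentile 21.4 and 21.3. Lama1 had 1, at percentile 21.9. Both genes rest on a single library.

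**Figure D3:**
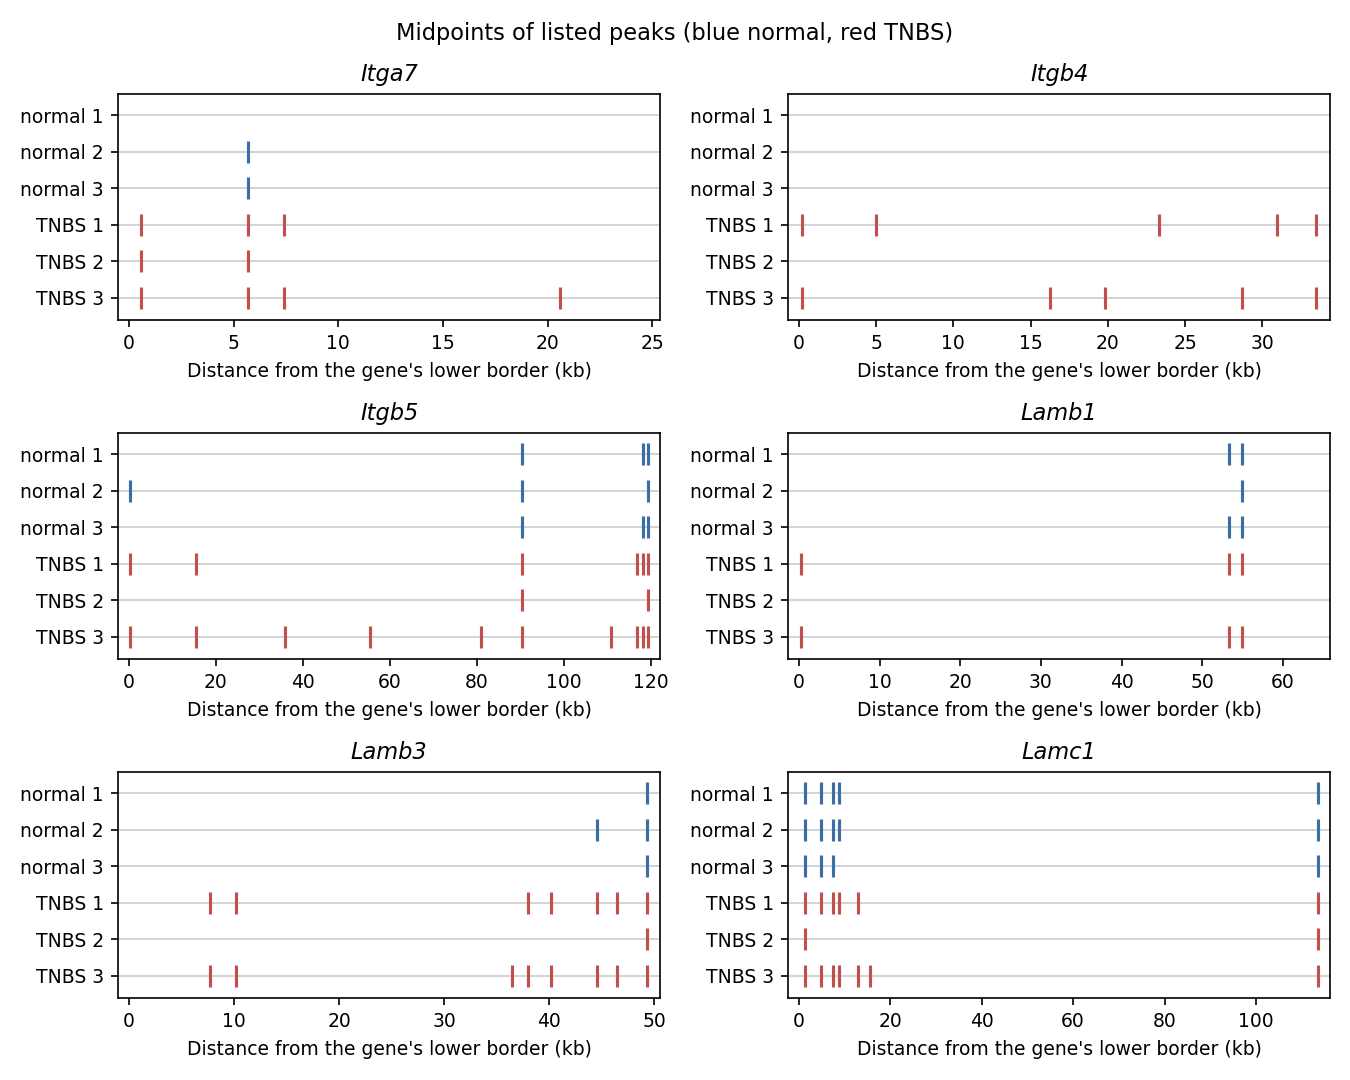
Each tick is the midpoint of a listed peak, placed by its distance in kilobases from the gene's border with the lower coordinate, 1 line per library. Lamb3 and Itgb5 keep their end peaks in all 6 libraries and gain ticks in TNBS 1 and TNBS 3, and Itgb4 has ticks in those libraries alone. Neighbouring ticks can touch, and 1 Lamb3 peak of normal 1 outside the gene's span is left out.

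The integrins as a family did not lean one way, with a higher mean peak number in TNBS for 6 of 19, a lower one for 7, an equal one for 6 and a median difference of 0. Without TNBS 1 and TNBS 3, 4 were higher, 12 lower and 3 equal, with a median of -0.667. Among the receptors for laminin, Itgb4 was listed in TNBS 1 and TNBS 3 alone. It encodes the beta chain of the hemidesmosome integrin, which binds the laminin that contains Lamb3 and couples it to keratin. Itgb4 had 0 peaks in each normal list and 5, 0 and 5 in the TNBS lists (difference 3.33, exact permutation p = 0.4, n = 3 each). Of its 8 regions on chromosome 11, the 2 at the gene's borders, 115974725 to 115975154 and 116007961 to 116008412, were shared by TNBS 1 and TNBS 3. The first had a fold enrichment of 9.95 and 10.7 and the second 4.53 and 8.5. The other 6 were each listed once, and all 8 were absent from TNBS 2. With the 10971 strongest peaks of every library the Itgb4 difference was 0.333, so most of its peaks belonged to the weaker part of those lists.

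Itgb4 and Lamb2 were the 2 members whose number of libraries with a peak differed by at least 2 between groups, both higher in TNBS. Of all genes 6.74% differed so in that direction and 5.69% in the other, where the members had 0. The 2 members are 7.41% of the members, near the share of all genes. Both were listed in TNBS 1 and TNBS 3 alone, as were 3.65% of all genes, and without these libraries neither had a peak. Both thus met the rule of a peak in any list through these libraries, which fixed their direction in advance. The shares over all genes also include genes that entered in this way.

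Itga6, the partner of Itgb4, had 1 peak in each of the 6 lists, at chromosome 2, 71855854 to 71858427. Its fold enrichment was 13.2, 11.2 and 9.77 in normal and 7.12, 4.06 and 8.24 in TNBS colon. It was tied at or above the score of 3100 in the normal lists and stood at percentile 67.9, 19.6 and 79.2 of the TNBS lists, so the site was common to all mice.

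Itga3, the alpha chain of another epithelial laminin receptor, had 2, 2 and 1 peaks in normal and 3, 2 and 2 in TNBS colon. The peak at its end, chromosome 11, 95044474 to 95045763, had the same borders in all 6 lists and was tied at the score of 3100 in each, which gives it the highest mean percentile (92.3) among the members listed everywhere. Its fold enrichment was 37.1, 25.5 and 24.0 in normal and 82.1, 22.8 and 105.8 in TNBS colon. The peak at the transcript start shown above was missing from normal 3 and stood at percentile 24.7 and 9.51 in the other normal lists and at 74.4, 58.7 and 63.1 in the TNBS lists. With 10971 peaks taken from every library, this start region joined the Itga7 region among those called in all TNBS and no normal list.

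Itgb1, the beta chain shared by most integrins that bind matrix, had a single region, the one at its start, in 4 of 6 libraries. Normal 2 and TNBS 2 lacked it. Its fold enrichment was 13.6 and 8.78 in normal and 14.5 and 17.2 in TNBS colon, so presence did not follow the groups.

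Among the receptors for fibronectin and related ligands, Itgb5, a partner of Itgav, had 3, 3 and 3 peaks in normal and 6, 2 and 10 in TNBS colon. TNBS 3 had the most peaks of any member and TNBS 2 fewer than any normal list (difference 3, SD 0 and 4, exact permutation p = 0.4, n = 3 each), and without TNBS 1 and TNBS 3 the difference was -1. Regions at chromosome 16, 33919785 to 33920214 and 33948657 to 33949338, were listed by all 6 libraries. The second had a fold enrichment of 28.6, 26.3 and 22.9 in normal and 77.5, 22.4 and 86.7 in TNBS colon. The start region was listed in normal 2, TNBS 1 and TNBS 3, and 1 region near the end in normal 1, normal 3, TNBS 1 and TNBS 3. The other 6 regions were listed in TNBS 3, and 2 of them also in TNBS 1.

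Itga5, the alpha chain of the main fibronectin receptor, had 2 peaks in each normal list and 3, 1 and 1 in the TNBS lists. The region at its end, chromosome 15, 103344286 to 103345352, was listed by all 6 libraries, tied at the score of 3100 in all but TNBS 2, where it stood at percentile 83.7. Itgb3, the beta chain of the platelet receptor and of an Itgav pair, had 2, 1 and 1 and 2, 2 and 2 peaks, with the region at chromosome 11, 104643576 to 104644005, in every list. The groups met at 2 peaks in Itgb3 and overlapped in Itga5. Of 4 platelet markers 1, 0 and 0 had a peak in normal and 1, 1 and 2 in TNBS colon, and Gp9 and Ppbp had none.

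Itgav, which pairs with several beta chains, had 1 peak, at the transcript start shown above, in all libraries but TNBS 2. Itgb6, the epithelial partner of Itgav that releases active TGF-beta, had 1 peak in normal 1, normal 2, TNBS 2 and TNBS 3. Itga8, an alpha chain of smooth muscle and mesenchyme, had 1 peak in each list. In TNBS 2 it stood at percentile 8.0, so Itga8, Itga6 and Lamc1 kept a region there that lay among that list's weaker peaks.

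Among collagen receptors, Itga11, an alpha chain of fibroblasts, had 1 peak in all libraries but TNBS 2. Itga1, which also binds collagen, had its end region in normal 1 and normal 2 (fold enrichment 8.28 and 6.04) and its start region in TNBS 1 (6.82). No region of Itga1 was common to both groups. Itga9, a receptor for tenascin and other ligands, had 1, 1 and 2 and 1, 0 and 1 peaks.

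No leukocyte integrin separated the groups by presence or number of peaks. Itga4, which guides lymphocytes into the gut wall, had 1 peak, at chromosome 2, 79326520 to 79328612, in all libraries but TNBS 2, with a fold enrichment of 42.2, 24.2 and 19.7 in normal and 22.0 and 32.3 in TNBS colon. Itgax, of dendritic cells and macrophages, also had 1 peak in all but TNBS 2, and Itgal, of lymphocytes, had 1 in normal 1 and TNBS 3, with a fold enrichment of 6.55 and 5.41. Itgam, of neutrophils and macrophages, had 1, 1 and 1 and 2, 0 and 1 peaks. Its region within the gene, chromosome 7, 128117306 to 128118491, was listed in the normal lists and TNBS 1, and the TNBS 3 peak lay outside the gene's annotated span. Itgb2l, a gene related to the leukocyte beta chain, had 2, 2 and 1 and 2, 1 and 3 peaks. Of 11 leukocyte markers 5, 6 and 4 had a peak in normal and 4, 2 and 5 in TNBS colon, and of 7 neutrophil markers 0, 0 and 0 and 2, 2 and 0. Cd3e, Cd4, Adgre1, Cd68, S100a8, Mpo, Cxcr2 and Retnlg had none. The part of leukocyte number in these values was not tested.

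TNBS 1 and TNBS 3 shared many member sites that the other lists lacked. This pattern was chosen after the values were seen and was not tested. The same 2 libraries lacked the Y chromosome peaks. In 8 of 27 members (29.6%) both libraries had more peaks than each of the other 4, against 11.4% of all genes. They included Itga7, Itgb4, Itgb5, Lamb1, Lamb2, Lamb3 and Lamc1. Itgb4 and Lamb2 entered the set through these 2 libraries alone, as did some of all genes. The same pattern was met by 3 of 8 smooth muscle markers (Acta2, Cnn1 and Myocd) and 1 of 11 leukocyte markers (Csf1r). It was met by 0 of 12 epithelial and 0 of 7 endothelial markers. Of the 84 member regions 15 (17.9%) were called in TNBS 1 and TNBS 3 alone, 9 of 35 laminin and 6 of 49 integrin regions, against 6.94% of all regions. Only 10 (11.9%) were called in all 6 libraries, against 28.4% of all regions. Regions called in a single library were unevenly spread too. There were 19 in TNBS 3 alone (22.6% against 9.21%) and 8 in TNBS 1 alone (9.52% against 5.66%), but 1 in TNBS 2 alone (background 2.78%), 1 in normal 1 (3.68%), 0 in normal 2 (2.08%) and 1 in normal 3 (0.983%). With peaks of p up to 1e-10 the 8 members became 5 of 26, where 10.7% of genes met the rule. With 10971 peaks taken from every library they became 2, Lamb2 and Lamb3, where 3.77% of genes met the rule.

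In the members that could be placed, the peaks that TNBS 1 and TNBS 3 added lay mostly outside the last 10% of the genes. This comparison covered 36 of the 59 member peaks in TNBS 1 and 38 of the 69 in TNBS 3. For the 18 members with a known strand, peaks with their midpoint in the last 10% of the gene span numbered 14, 12 and 12 in normal and 14, 6 and 14 in TNBS colon. Peaks between the first and last 10% numbered 5, 5 and 4 and 14, 2 and 18, and peaks in the first 10% numbered 3, 4 and 3 and 8, 1 and 6. Peaks at the end of genes were thus about as many in TNBS 1 and TNBS 3 as in the normal lists, while those elsewhere were more. As a share of member peaks the last 10% held 63.6%, 57.1% and 63.2% in normal and 38.9%, 66.7% and 36.8% in the TNBS lists. Over 7886 genes with a known strand and a span of at least 5000 bases, the share was 32.8% to 34.2% in the normal lists and 31.3%, 30.9% and 29.7% in the TNBS lists. In those genes TNBS 1 and TNBS 3 held 13621 and 14068 peaks, against 10090 to 12020 in normal. More peaks were thus not particular to the members. The share between the first and last 10% was 46.0% to 46.6% in normal and 47.4%, 47.9% and 48.9% in the TNBS lists. Peak length of the members moved with their positions. The median length of member peaks was 559, 538 and 508 bases in normal and 366, 584 and 208 in TNBS colon, against 608.5 to 656 and 518, 616 and 477 over all peaks. Of 54 member regions listed by at least 2 libraries, 37 had the same start and end in every list that held them. Identical borders were common over all peaks too. Between pairs of lists, 44.3% to 57.9% of the shorter list had a peak with the same borders in the other, a measure unlike the count of regions.

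**Figure D4:**
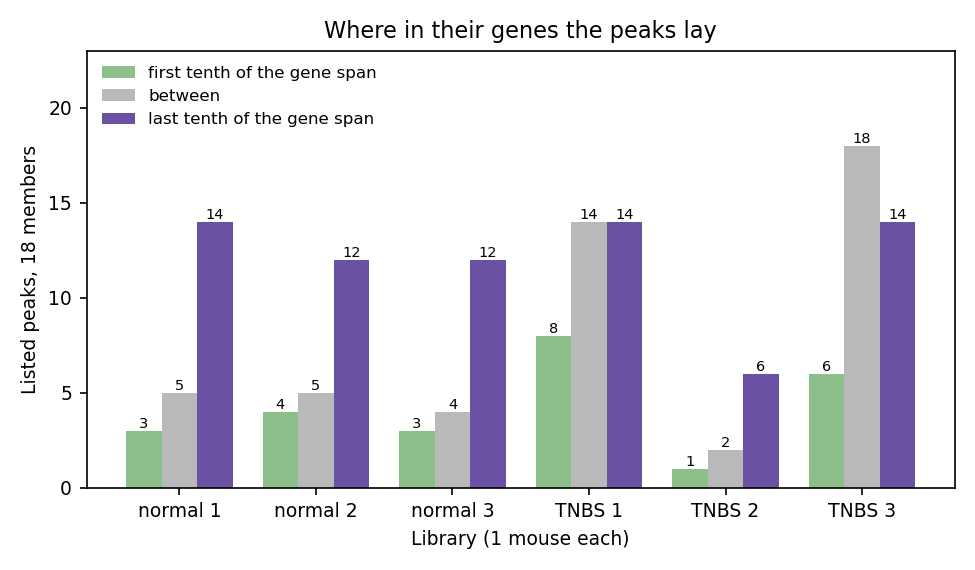
Bars give, per library, the number of listed peaks of 18 members in the first 10% of the gene span, in the last 10% and between them, measured on the genome with introns included. The last 10% holds 12 to 14 peaks in every library but TNBS 2 (6), and the part between is highest in TNBS 1 (14) and TNBS 3 (18).

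Of 60 genes that work with integrins and laminins 48 had a peak. A peak in all 6 libraries was listed for 32 of the 48 (66.7%), above the 48.1% of all genes, where the members were below it (33.3%). TNBS 1 and TNBS 3 both exceeded the other 4 libraries in 19 of the 48 (39.6%), against 11.4% of all genes, a pattern that was again chosen after its values were seen. Col4a1 and Col4a2 encode chains of type IV collagen, which forms the second network of basement membranes. They had 3, 4 and 5 (Col4a1) and 1, 6 and 4 (Col4a2) peaks in normal and 18, 2 and 20 and 19, 1 and 14 in the TNBS lists. Hspg2 (perlecan), a basement membrane proteoglycan, had 1, 2 and 3 and 13, 1 and 13, and Nid1, which links laminin to type IV collagen, 1, 1 and 1 and 3, 1 and 3. In these 4 genes TNBS 2 was at or below every normal list, and without TNBS 1 and TNBS 3 the differences were -2 (Col4a1), -2.67 (Col4a2), -1 (Hspg2) and 0 (Nid1). These 4 genes were singled out after their values were seen. Of 20 basement membrane and ligand genes with a peak, 7 met the pattern, these 4 and Tnxb, Vwf and Icam1. Other related genes differed. Col4a5 had 0, 0 and 1 peaks in normal and 1, 0 and 2 in TNBS colon, and Col4a6 1, 1 and 0 and 0, 0 and 1. Nid2 had 1, 1 and 1 and 2, 1 and 1, and Agrn 0, 1 and 1 and 1, 0 and 2. In none of these were TNBS 1 and TNBS 3 both above every other list.

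Among these genes, 3 separated the groups. Pxn (paxillin), a scaffold of focal adhesions, had 1, 1 and 1 peaks in normal and 3, 2 and 2 in TNBS colon. Tln2, a talin that activates integrins, went the other way with 4, 4 and 3 and 1, 1 and 1, as did the matrix protein Thbs1 with 2, 2 and 2 and 1, 1 and 1. That is 1 of 48 genes higher in TNBS and 2 lower, against 1.97% and 2.15% of all genes, and for each the exact permutation p was 0.1 (n = 3 each), the smallest possible. By number of libraries with a peak, Tln1 (1 normal and 3 TNBS), Fermt3, a kindlin of blood cells, and Lims2 (0 and 2 each) differed by at least 2 towards TNBS. Bcam, a laminin receptor outside the integrin family, and Vcam1, the vessel ligand of the Itga4 integrin, differed towards normal (3 and 1 each). These are 3 and 2 of 48 genes, against 6.74% and 5.69% of all genes.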

How the data were processed

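The 12 libraries form 6 pairs of immunoprecipitated and input RNA, and the authors deposited 1 peak list per mouse, limited to mRNA. Peaks carry MACS names, per the file headers. Base calling used CASAVA 1.8 and alignment BWA with build hg19, per the submitters' processing notes, yet 99.1% to 99.5% of peaks fell on the mouse gene carrying their identifier in GRCm38, the build of the positions given here. Starts are listed counting from 0 (701 to 1493 per list lay 1 base below a gene's start), so 1 was added. The sources used here do not give caller settings or reads per library, so depth is unknown.

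Listed with every peak are a score, minus 10 times log10 of the caller's p, a ratio (fold enrichment over input) and a false discovery rate in percent, all as deposited by the authors. The lowest score was 50 (p of 1e-05), and 905 to 3087 peaks per list shared a score of 3100, which ties their percentiles. Score and fold were used to rank, describe or filter peaks within a list.

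Presence and number of peaks were compared between groups with exact permutation tests over 3 against 3, on the whole table of 11548 genes, in Python 3.11.15 with pandas 2.3.3. The functions were tested on simulated data. Members named by rule are those that separated the groups, differed by at least 2 libraries or had a region in all libraries of one group and none of the other, and the 4 with a peak everywhere and the highest mean percentile (Itga3, Itga5, Lamc1 and Itgb5). The values of the other members, and of related genes beyond those that differed by at least 2 libraries, were added after they were seen. The values of 1 member, which all counts and sums include, are not reported here. The members and lists were chosen with earlier results of these data known. Nothing beyond the mouse numbers says that samples were processed apart, so p-values measure the spread between these samples.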

Additional observations from a re-analysis of the deposited data

How the results depend on the processing

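The alternatives kept peaks with p up to 1e-10, peaks with a fold of 4 or more, or the 10971 strongest per library, and others were a stricter overlap, leaving out each library and, added after seeing the data, leaving out TNBS 1 and TNBS 3. At p of 1e-10 or less, 0 members and 0 regions separated the groups towards TNBS (1 and 1 before), and with equal list lengths 2 members (Itga3, Itga7) and 2 regions did, while 1 member, Itga7, had a peak in all TNBS and no normal library. Leaving out 1 library loosens these rules for all genes too. The shares of all genes and regions that met these rules under each alternative are not given here, so the counts are no result about the members. Members higher in TNBS then ranged from 1 to 8 (8 without TNBS 2, 2 without normal 1), members higher in normal from 0 to 1 (1, Itga5, without TNBS 1), members with a peak in all TNBS and no normal library from 0 to 2 (2 without TNBS 2), regions in TNBS alone from 1 to 16 (16 without TNBS 2, 2 without normal 1) and regions in normal alone from 0 to 1 (1 without normal 3 or TNBS 1). The difference in members with a peak ranged from -2.67 to 3.83 and that in share of peaks from 0.034 to 0.135.

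Without TNBS 1 and TNBS 3, the difference in members was -8.67 and in share -0.0458, 8 members had a peak in all normal libraries and not in TNBS 2, 11 had more peaks in every normal library, and 2 and 11 regions followed TNBS 2 and normal alone. TNBS 2 was the shortest list, and its peak number was below the normal mean in 16 of 27 members and in 6045 of 11548 genes. Low counts there were thus not confined to the members, but they went further in the members. The median difference was -0.667 peaks for the members and -0.333 over all genes. In TNBS 2 a peak was listed for 44.4% of members and 59.6% of all genes. Without TNBS 1 and TNBS 3, Itga7 had a difference of 1.33 and Itgb4 and Lamb2 of 0. The cause was not tested. The overlap of 50% of the shorter peak and the fold limit changed no count of members or regions that separated the groups. The difference in members with a peak, -0.333, was -1 at a fold of 4 or more, 0.333 at p up to 1e-10 and 1 with equal list lengths, all within the spread between mice, so its sign is not settled. Mouse numbers do not pair the samples (correlations of deviations -0.0457, -0.175 and -0.027, with 0 of 6 libraries closest to their own number). With the replicate block, the difference in members was -0.333 and in share 0.075, and Itga7 had a difference of 2.33 with an exact sign-flip p of 0.25, the smallest that 3 pairs can give, while Itgb4 (3.33) and Lamb2 (1.33) had p of 0.5 by that exact test. With 6 lists of unknown depth, the absence of a peak is not evidence of absent m6A.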

Other observations

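Of the 84 member regions 2 lay outside the annotated span of the gene they were assigned to. One, given to Lamb3 in normal 1, was at chromosome 1, 193280371 to 193280921, with a fold enrichment of 5.46, and the gene spans 193294353 to 193343878. The other, given to Itgam in TNBS 1 and TNBS 3, was at chromosome 7, 128126808 to 128127225, between Itgam (ending at 128118491) and Itgax (starting at 128129526), with a fold enrichment of 11.8 and 13.5. The TNBS 3 count for Itgam rests on this region alone. The lowest false discovery rate of any member peak was 18.8%, 21.6% and 31.2% in the normal lists. In the TNBS lists it was 52.4%, 100% and 100%, so no member peak passed 5% in the caller's own terms. Over all peaks, 10.5%, 13.7% and 37.8% of the normal lists had a rate of 100%. In the TNBS lists 66.6%, 100% and 100% (rounded) of all peaks had it, so high rates there were not particular to the members. The share of all peaks that passed 5% is not given here, so the count is no result about the members.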
